A study of Mus musculus with 9 samples.

Results

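The cluster of miR-532, miR-188, miR-362, miR-501 and miR-500 is a group of microRNA (miRNA) hairpins in introns of Clcn5, the gene of an endosomal chloride/proton exchanger on the mouse X chromosome. Small RNA-seq of it was compared among 3 library preparations. 7 mature arms were described in depth: miR-362-5p, miR-362-3p, miR-500-3p, miR-501-3p, miR-532-5p, miR-532-3p and miR-188-5p. The 3 other arms with a known position (miR-188-3p, miR-500-5p and miR-501-5p) were read as well, which gave 10 arms beside 268 reference miRNAs and 17933 5′ ends tested in all. 5 of the 7 members were found by matching their listed relative expression to the 5′ ends in the files. The cluster was chosen by those same values, because some co-transcribed members were listed at 0 with 1 preparation, so levels of these 5 members are described and not tested. The remaining arms were found from their distances to miR-188-5p in the reference. The value-matched members lay 6009, 10335 and 6760 nt from miR-188-5p in the files, for miR-362-5p, miR-500-3p and miR-501-3p, exactly as in the reference. The 5 value-matched arms each reached at least 123 reads per 1000000 mapped reads (RPMM) in some MIN6 library, whereas the highest level among the other 5 was 73.8 RPMM. miR-660 was not analysed here.

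A miRNA cluster is transcribed as 1 long RNA, from which Drosha cuts each hairpin and Dicer then cuts a duplex. Either strand of that duplex, the 5p or the 3p arm, may be kept by an Argonaute protein, so arms of 1 transcript can have unequal mature levels. The seed, bases 2 to 8, is the stretch that pairs most with target transcripts. To be counted by sequencing, each mature RNA must be ligated to an adapter at both ends, and the 3 preparations differ in these adapters.

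The samples were 9 libraries. 7 were made from MIN6, a mouse insulinoma line with beta-cell character, grown with 25 mM glucose and 10% serum. Of these, 3 were made with Illumina TruSeq, 3 with Illumina v1.5 and 1 with Bioo Scientific NEXTflex V2, whose adapters end in degenerate bases. The other 2 came from 1 RNA of the liver of 1 adult female C57BL/6J mouse, injected with saline and fasted as a control animal, prepared with TruSeq and with NEXTflex. All MIN6 libraries are from 1 untreated cell line. The study calls the replicates biological without stating what separated them, and p-values measure the spread between these libraries. The v1.5 and TruSeq MIN6 libraries were sequenced on the same platform, whereas the NEXTflex MIN6 library came from another RNA, platform and centre, and these cannot be told apart from its preparation.

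Summed counts were 6923460 to 12458630 in TruSeq, 10800301 to 13158853 in v1.5 and 25638871 in NEXTflex MIN6, and 17875869 and 14426009 in TruSeq and NEXTflex liver. The NEXTflex files were less diverse, with 102 and 80.2 counts per distinct alignment in MIN6 and liver against 6.96 to 15.2 in the other 7. The beta-cell miRNA miR-375-3p was at 64950 RPMM or more in every MIN6 library and at 40.0 RPMM or less in liver. The hepatocyte miRNA miR-122-5p was at 17244 and 532452 RPMM in TruSeq and NEXTflex liver, at 2.38 RPMM or less in the TruSeq and v1.5 MIN6 libraries and at 128 RPMM in NEXTflex MIN6. miR-7a-1-5p, 1 of the genomic copies of a miRNA abundant in beta cells, among which shared reads are divided, was at 130070 RPMM in NEXTflex MIN6 against 402 to 2511 RPMM in the other MIN6 libraries, and at 372 RPMM in NEXTflex liver against 3.37 RPMM in TruSeq liver. All 3 beta-cell, all 3 hepatocyte and both endothelial and all 3 stromal markers were placed, and 2 of 6 of blood. The highest levels in MIN6 were 5.26 RPMM for blood (miR-142-5p), 5.11 RPMM for stroma (miR-143-3p) and 208 RPMM for endothelium (miR-126-3p), against 3777, 9373 and 463 RPMM in TruSeq liver. Whether RNA of 1 NEXTflex library reached the other was not tested.

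In the mouse genome (GRCm38), Clcn5 spans chrX:7153810-7319358 on the minus strand. All 5 hairpins lie inside it on the same strand and overlap none of its exons, so they are intronic. In the order of transcription they are Mir532 (chrX:7248402-7248497), Mir188 (chrX:7247989-7248056), Mir362 (chrX:7241982-7242046), Mir501 (chrX:7241243-7241351) and Mir500 (chrX:7237683-7237774), which cover 10815 bp from end to end. The deposited alignments are to mm9, and the positions given here are those of the reference annotation.

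The arms whose levels, seeds and read ends are compared most closely are given first, from RefSeq (GRCm38.p6), 5′ to 3′, with the seed in capitals.
miR-188-5p: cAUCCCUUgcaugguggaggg
miR-188-3p: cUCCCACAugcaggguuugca
miR-362-5p: aAUCCUUGgaaccuaggugugaau
miR-501-5p: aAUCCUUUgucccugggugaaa
miR-500-5p: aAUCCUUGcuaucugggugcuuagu
miR-501-3p: aAUGCACCcgggcaaggauuug
miR-500-3p: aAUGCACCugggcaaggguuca

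miR-362-5p and miR-500-5p share the seed AUCCUUG, and miR-500-3p and miR-501-3p share AUGCACC. Counted from 1 at the 5′ end of miR-500-3p, the 2 sister 3p arms differ at 4 positions, written with the miR-500-3p base first: U9C, G18A, C21U and A22G. No other seed is shared among the 9 arms with a mature sequence. The Mir362 hairpin, the one whose dominant arm differed between preparations, is shown with both arms in capitals.
Mir362: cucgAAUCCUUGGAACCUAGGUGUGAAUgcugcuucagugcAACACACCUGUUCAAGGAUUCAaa

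miR-532-5p, the most abundant arm, had 233, 256 and 258 RPMM in the TruSeq libraries, 343, 356 and 382 RPMM in v1.5 and 505 RPMM in NEXTflex. It ranked first among the 10 arms in all 9 libraries. Its group means were 249 ± 13.6 RPMM with TruSeq and 360 ± 19.7 RPMM with v1.5 (SD, n = 3), a 1.44-fold ratio. Ratios of an arm between preparations or sources were taken after 1 RPMM was added to each mean, or to a single library's value. Nothing was added for the "at least" folds, the folds over the level of 3 counts and the ratio of cluster sums. The TruSeq and v1.5 libraries did not overlap, and NEXTflex lay above both.

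miR-362-5p had 12.8, 14.8 and 10.5 RPMM in TruSeq, 222, 241 and 254 RPMM in v1.5 and no read in NEXTflex. The v1.5 mean of 239 ± 16.4 RPMM was 17.5 times the TruSeq mean of 12.7 ± 2.10 RPMM (SD, n = 3), the highest ratio of the 10 arms. No NEXTflex read began within 5 nt of its 5′ end either. With 3 counts taken as the limit that a count of 0 allows, which is 0.117 RPMM in NEXTflex, its level was at least 2037-fold higher in v1.5 and at least 108-fold higher in TruSeq. These limits cover counting error of the 0 only. The mean on the other side is taken as it stands, and reads copied by PCR are not independent molecules.

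The arm from the other side of the same hairpin was far closer between preparations. miR-362-3p had 47.3, 43.8 and 41.6 RPMM in TruSeq, 58.1, 69.8 and 54.5 RPMM in v1.5 and 17.9 RPMM in NEXTflex, so that all 7 MIN6 libraries held it and NEXTflex was the lowest. Its means were 44.2 ± 2.87 and 60.8 ± 7.98 RPMM (SD, n = 3), a 1.37-fold ratio, against 17.5-fold for its partner arm.

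miR-500-3p had 47.7, 43.1 and 44.0 RPMM in TruSeq, 155, 161 and 147 RPMM in v1.5 and no read in NEXTflex, at its 5′ end or within 5 nt of it. The v1.5 mean of 154 ± 7.11 RPMM was 3.37 times the TruSeq mean of 44.9 ± 2.44 RPMM. Relative to NEXTflex it was at least 1313-fold higher in v1.5 and at least 383-fold higher in TruSeq.

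miR-501-3p, its sister with the same seed, had 54.9, 59.2 and 58.3 RPMM in TruSeq, 119, 119 and 118 RPMM in v1.5 and 123 RPMM in NEXTflex. NEXTflex thus held 3151 counts of miR-501-3p and none of miR-500-3p, whereas TruSeq gave the sisters like levels (57.5 ± 2.23 and 44.9 ± 2.44 RPMM). At most 0.128% of the miR-500-3p counts of any library, and none of the miR-501-3p counts, came from reads divided among several alignments. Whether reads of 1 sister were given wholly to the other was not tested.

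miR-188-5p had 129, 108 and 108 RPMM in TruSeq, 93.3, 92.9 and 95.4 RPMM in v1.5 and 34.7 RPMM in NEXTflex. It was the value-matched member that TruSeq favored, with means of 115 ± 11.9 and 93.9 ± 1.34 RPMM, a 1.22-fold ratio of TruSeq over v1.5. miR-532-3p also lay lower in v1.5, at 57.1, 53.4 and 52.2 RPMM, than in TruSeq, at 66.1, 59.8 and 62.5 RPMM, and had 54.1 RPMM in NEXTflex.

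**Figure D1:**
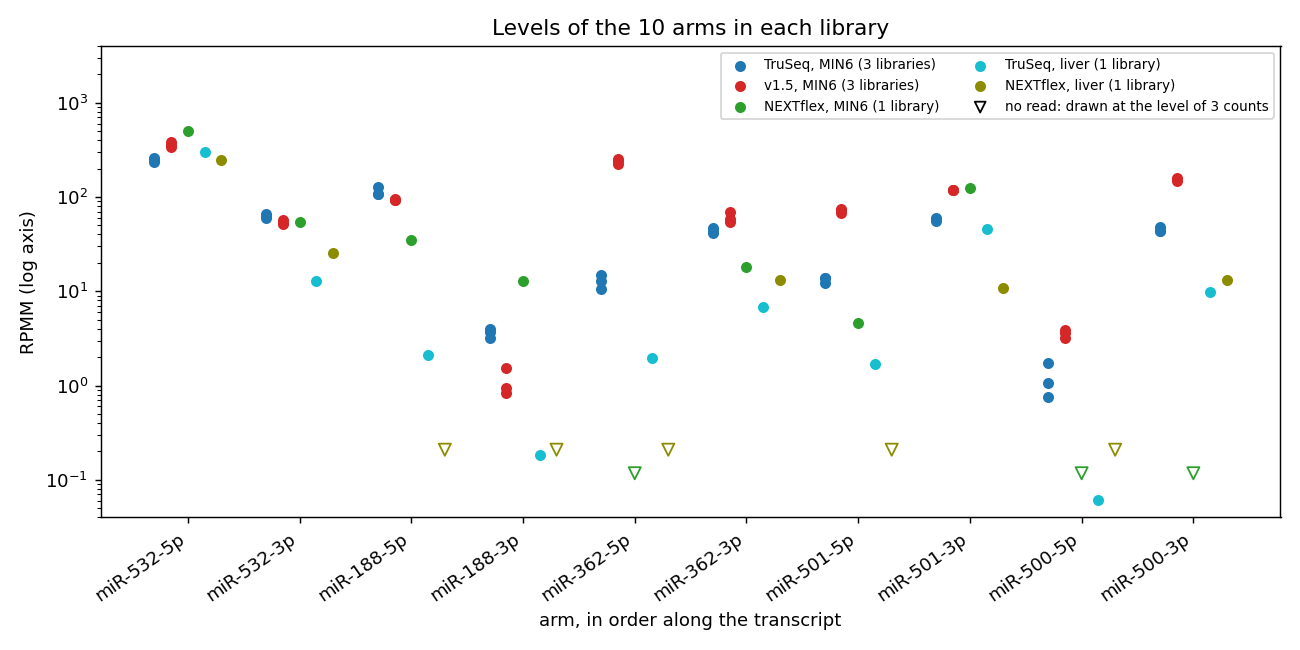
RPMM (log axis) of the 10 arms in each library, in the order of transcription; each point is 1 library, and an open triangle marks no read, drawn at the level of 3 counts. miR-362-5p and miR-500-3p are at 147 RPMM or more in all v1.5 libraries and have no read in NEXTflex MIN6.

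The 3 arms outside the listed 7 were all minor in TruSeq. miR-501-5p had 13.9, 13.7 and 12.3 RPMM in TruSeq, 73.8, 72.6 and 68.0 RPMM in v1.5 and 4.58 RPMM in NEXTflex. miR-188-3p ran the opposite way, with 3.16, 3.94 and 3.74 RPMM in TruSeq, 0.952, 0.838 and 1.54 RPMM in v1.5 and 12.9 RPMM in NEXTflex. miR-500-5p, which has the seed of miR-362-5p, had at most 1.75 RPMM in TruSeq, 3.17 to 3.85 RPMM in v1.5 and no read in NEXTflex.

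The question of v1.5 against TruSeq is how far 2 sets of fixed adapters change the profile of the same cells. 5 of the 7 members had a higher mean in v1.5. Their log2 ratios of v1.5 over TruSeq ran from -0.29 (miR-188-5p) to 4.13 (miR-362-5p), a spread of 4.42, with a median of 0.53. Over the 268 reference miRNAs the median was 0.62, with a range of -4.14 to 5.63. The libraries of the 2 preparations did not overlap for any of the 7 members, and the same held for 93.7% of the reference miRNAs.

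**Figure D2:**
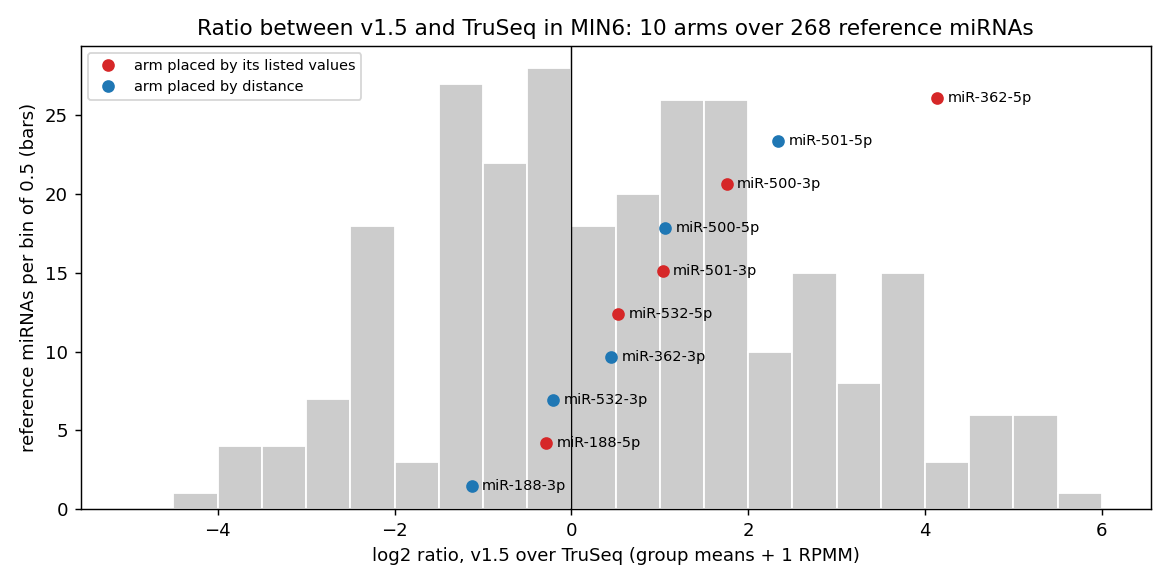
Log2 ratio of v1.5 over TruSeq for the 10 arms (points, spaced vertically in rank order) over a histogram of the same ratio in the 268 reference miRNAs (bars, number per bin of 0.5). The arms run from -1.13 for miR-188-3p to 4.13 for miR-362-5p.

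The 5 arms found by distance were not used to choose the cluster, and their levels were tested. By the edgeR quasi-likelihood test, with p-values adjusted by Benjamini-Hochberg across the 17933 5′ ends, 4 of the 5 arms passed an adjusted p of 0.05, and 80.1% of all 5′ ends did (51.4% higher in v1.5, 28.6% higher in TruSeq). The count of arms, which includes miR-500-5p, is thus near the background. miR-501-5p rose in v1.5 by 2.43 ± 0.11 on the log2 scale (SE, adjusted p = 3.83e-06) and miR-362-3p by 0.46 ± 0.12 (adjusted p = 0.0118), the last a direction that turned with TMM factors and with DESeq2. miR-188-3p fell by 1.71 ± 0.26 (adjusted p = 6.60e-04). miR-532-3p, with a log2 fold change of -0.21 ± 0.09, did not pass (adjusted p = 0.0704). miR-500-5p, at 1.64 ± 0.30 (adjusted p = 0.00180 by edgeR, 0.0551 by DESeq2), had 7, 12 and 9 counts in TruSeq and 40, 43 and 40 in v1.5. It entered the test through v1.5, the group where it is high, so its call supports nothing by itself.

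The calls of miR-362-3p and miR-532-3p also depended on scaling. The median of all 5′ ends was 0.82 higher in v1.5 when mapped reads set the library size and 0.30 higher with TMM factors. Relative to the median of 0.82, the log2 fold changes were 1.61 for miR-501-5p, 0.82 for miR-500-5p, -0.36 for miR-362-3p, -2.53 for miR-188-3p and -1.03 for miR-532-3p. With TMM factors, edgeR gave miR-362-3p a log2 fold change of -0.05 (adjusted p = 0.752) and miR-532-3p one of -0.72 (adjusted p = 0.00111), so that 2 arms were called higher and 2 lower in v1.5 instead of 3 and 1. The higher arms include miR-500-5p both times, whose call supports nothing by itself.

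Within a hairpin, both arms come from 1 precursor and 1 library, so the share of the 5p arm does not depend on how libraries are scaled. For Mir362 this share was 21.3%, 25.2% and 20.2% in TruSeq, 79.2%, 77.6% and 82.3% in v1.5 and 0% in NEXTflex, where 0 of 457 counts allow up to 0.834% (95% Wilson interval). The 3p arm was therefore dominant in TruSeq and NEXTflex and the 5p arm in v1.5, where its lead rested on reads of 26 nt, as given with the read lengths. Mir501 kept its 3p arm dominant in every library, but the 5p share was 18.8% ± 1.39 in TruSeq, 37.6% ± 0.881 in v1.5 (SD, n = 3) and 3.58% in NEXTflex.

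The other hairpins were less divided. Mir532 gave 79.8% ± 1.66 5p arm in TruSeq, 86.9% ± 1.12 in v1.5 and 90.3% in NEXTflex. Mir188 was almost wholly 5p in TruSeq and v1.5 (96.9% ± 0.603 and 98.8% ± 0.372) and 72.8% 5p in NEXTflex. The 5p share of Mir500 overlapped between TruSeq (1.67% to 3.91%) and v1.5 (2.01% to 2.56%), although both its arms were higher in v1.5.

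**Figure D3:**
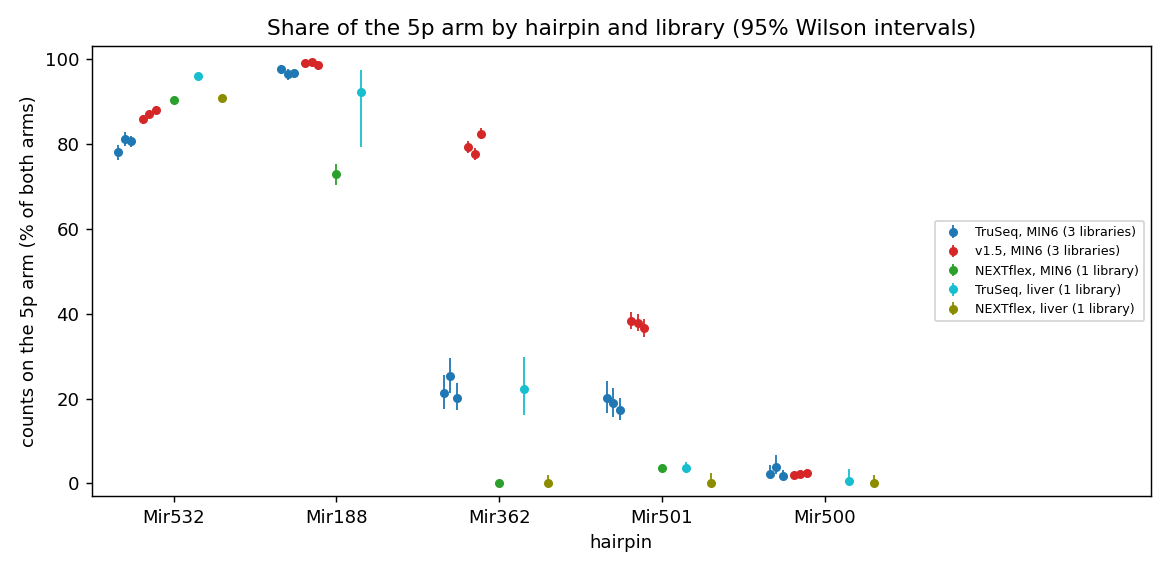
Counts on the 5p arm as a percentage of both arms, for each hairpin and library; bars are 95% Wilson intervals, which cover counting error only, and no point is drawn where neither arm had a read. Mir362 lies between 20.2% and 25.2% in TruSeq MIN6, between 77.6% and 82.3% in v1.5 and at 0% in both NEXTflex libraries.

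As a whole the cluster summed to 604 ± 4.59 RPMM in TruSeq and 1157 ± 28.2 RPMM in v1.5 (SD, n = 3), a 1.91-fold ratio, and to 753 RPMM in NEXTflex. miR-532-5p made up 41.2% ± 2.54 of this sum in TruSeq, 31.1% ± 1.16 in v1.5 and 67.1% in NEXTflex. The arm ranked second differed: miR-188-5p in TruSeq (17.9% to 21.1%), miR-362-5p in v1.5 (19.7% to 21.6%) and miR-501-3p in NEXTflex (16.4%). A ranking of the cluster's members by read number therefore depended on the preparation from the second place on.

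**Figure D4:**
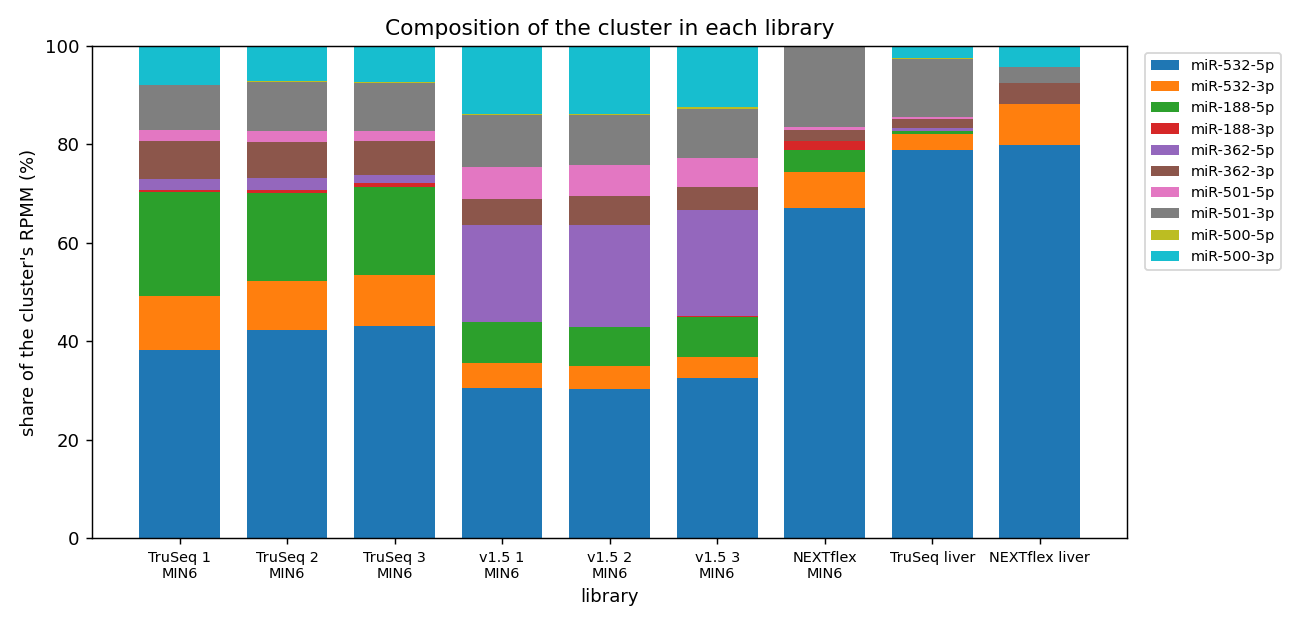
Share of the cluster's summed RPMM taken by each of the 10 arms, in the 9 libraries. miR-532-5p is the tallest segment in every library, while miR-362-5p takes 1.76% to 2.44% in TruSeq MIN6, 19.7% to 21.6% in v1.5 and 0% in NEXTflex.

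Read lengths, which played no part in choosing the members, separated the preparations further. In v1.5, 87.2% to 87.9% of the miR-362-5p counts were reads of 26 nt, against 16.6% ± 4.88 (SD, n = 3) in TruSeq, where 24 nt was the commonest length (31.5% to 38.8%). Reads of 26 nt also made up 70.9% to 73.2% of miR-501-5p in v1.5 and 1.35% to 3.19% in TruSeq, where 20 nt was commonest (35.1% to 43.9%). All 117 NEXTflex counts of miR-501-5p were 20 nt long. For miR-500-5p, with 7 to 43 counts a library, 26-nt reads were 6.98% to 12.5% in v1.5 and 0% to 33.3% in TruSeq, and 27-nt reads were 22.5% to 23.3% in v1.5.

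The 26-nt stretches from these 5′ ends, read from the RefSeq hairpins, show the bases at which the long reads end. Capitals mark the last 5 bases.
miR-362-5p, 26 nt: aauccuuggaaccuaggugugAAUGC
miR-501-5p, 26 nt: aauccuuugucccugggugaaAAUGC
miR-500-5p, 26 nt: aauccuugcuaucugggugcuUAGUG

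Both arms with many 26-nt reads in v1.5 end in AAUGC at this length, while miR-500-5p ends in UAGUG at 26 nt and in AGUGC at 27 nt, with too few counts to compare. In levels, the 26-nt reads of miR-362-5p were at 2.17 ± 0.875 RPMM in TruSeq and 210 ± 13.6 RPMM in v1.5 (SD, n = 3), and those of miR-501-5p at 0.302 ± 0.136 and 51.6 ± 2.99 RPMM. Without reads of this length, a choice made after the data were seen, miR-362-5p was at 10.5 ± 1.32 and 29.5 ± 2.92 RPMM, a 2.64-fold ratio in place of 17.5-fold and below the 60.8 ± 7.98 RPMM of miR-362-3p in v1.5, so that the 3p arm of Mir362 led in v1.5 too, and miR-501-5p at 13.0 ± 0.776 and 19.9 ± 0.231 RPMM, 1.49-fold in place of 5.06-fold. Over all reads, 26 nt made up 0.779% to 0.948% of TruSeq and 1.24% to 1.37% of v1.5 counts, and the part of this general difference in the result was not tested.

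miR-188-5p was narrow in TruSeq and broad in v1.5. Reads of 22 nt were 85.4% to 88.7% of its counts in TruSeq, whereas in v1.5 lengths of 20, 21 and 22 nt took 25.3% ± 0.962, 26.2% ± 2.24 and 24.4% ± 1.53. At 22 nt its level was 100 ± 8.30 RPMM in TruSeq and 22.9 ± 1.72 RPMM in v1.5, and at 20 nt it was 0.571 ± 0.387 and 23.7 ± 0.629 RPMM. The sum over lengths, with its 1.22-fold ratio, thus joined lengths that differed in opposite directions. NEXTflex held it as 22 nt (50.8%) and 23 nt (49.2%) in nearly equal parts.

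miR-501-3p was read mainly as 22 nt in TruSeq (71.8% to 78.6%) and as 23 nt in v1.5 (69.6% to 71.9%) and NEXTflex (74.2%). miR-532-5p was 22 nt long in 60.5% to 61.9% of counts in TruSeq and 89.7% to 90.9% in v1.5. By contrast miR-362-3p had nearly the same mean length in both, 21.1 ± 0.0881 and 21.2 ± 0.0876 nt, and its libraries overlapped. In the other 6 members the mean length did not overlap between the preparations, as in 85.1% of the reference miRNAs, so the count of members is near the background.

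**Figure D5:**
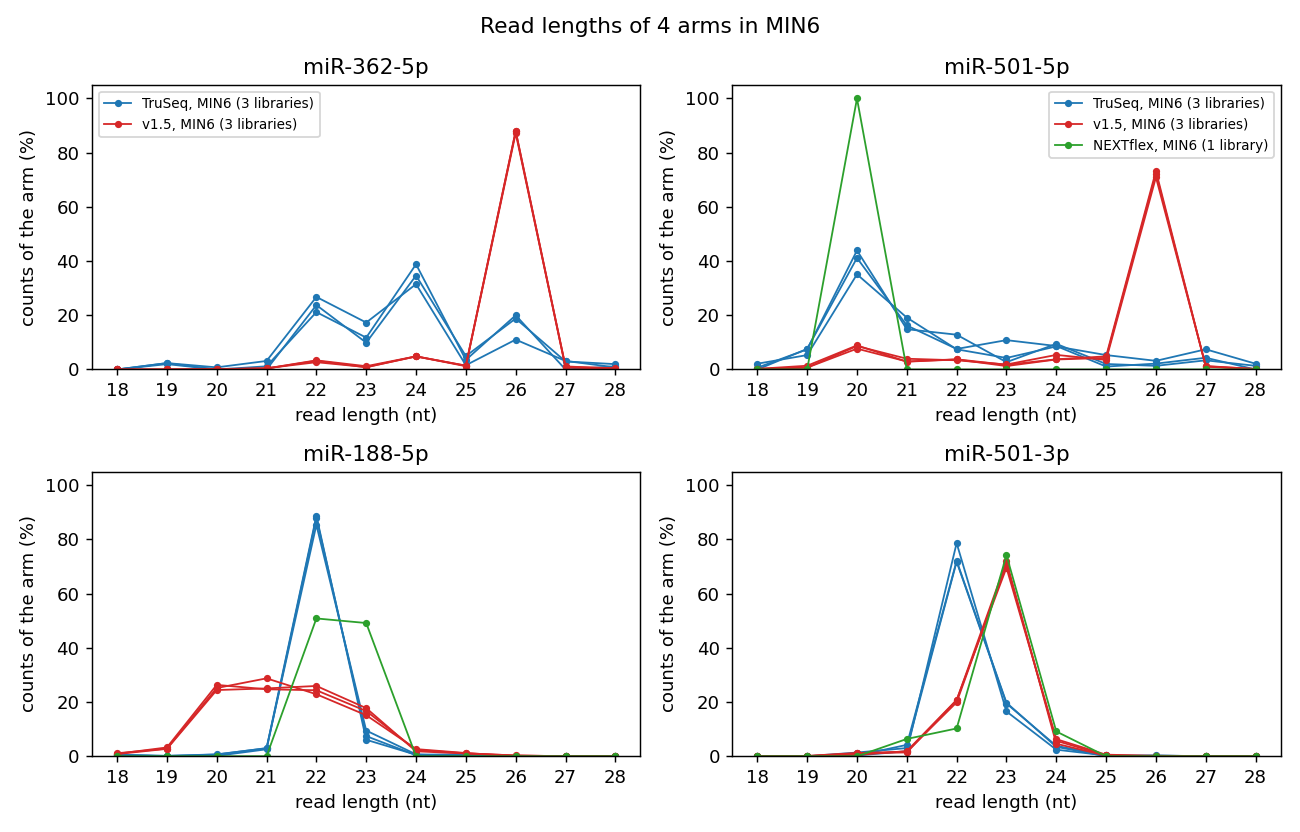
Share of each arm's counts (%) by read length (nt) in the MIN6 libraries, with 1 line per library and none for miR-362-5p in NEXTflex, which held no read. miR-362-5p and miR-501-5p peak at 26 nt in v1.5 and not in TruSeq, miR-188-5p at 22 nt in TruSeq, and miR-501-3p at 22 nt in TruSeq but 23 nt in v1.5 and NEXTflex.

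Terminal bases that do not match the genome, as left by nucleotide addition or by sequencing error, also moved with preparation. For miR-188-5p, 14.2% to 16.7% of TruSeq counts ended in a mismatched A and 5.92% to 9.01% in a mismatched U. In v1.5 the order was reversed, at 5.20% ± 0.690 (SD, n = 3) for A and 14.6% to 16.4% for U, and in NEXTflex 49.0% ended in U. miR-500-3p ended in a mismatched U in 12.8% to 15.9% of TruSeq and 3.86% to 4.86% of v1.5 counts. miR-532-5p ended in a mismatched A in 9.74% to 10.7% and 2.12% to 2.32%.

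5′ ends, which set the seed, were nearly fixed. The share of reads starting 1 to 5 nt from the main 5′ end had means of 0% to 1.17% in TruSeq and 0.145% to 2.05% in v1.5 for the 7 members. For 3 of the 7 the libraries did not overlap, against 63.8% of the reference miRNAs (34% with v1.5 higher, as in these 3): miR-501-3p (1.03% ± 0.270 against 2.05% ± 0.434), miR-362-5p (0% against 0.214% ± 0.0628) and miR-500-3p (0% against 0.186% ± 0.0287). With 3 libraries against 3, a two-sided exact permutation test cannot go below p = 0.1, which these 3 reached, so none could pass 0.05. For miR-362-5p and miR-500-3p the separation is within counting error, since the 0 in TruSeq allows up to 2.94% to 4.32% and 0.720% to 1.29% (95% Wilson intervals), above the shares in v1.5. In NEXTflex the share for miR-532-5p was 3.36% (95% Wilson interval 3.07% to 3.68%), above the 0.321% to 0.712% of the other 6 MIN6 libraries.

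NEXTflex against the other preparations asks whether degenerate adapters give another profile. In these comparisons 1 library stands on the NEXTflex side, it serves both, and no test was run. 2 of the 7 members, miR-362-5p and miR-500-3p, had no NEXTflex read in MIN6, as had 2.24% of the reference miRNAs, and this is what the choice of the cluster used. The same 2 members differed by over 10-fold from TruSeq and from v1.5, as did 19.4% and 17.5% of the reference miRNAs. Against TruSeq, miR-501-3p and miR-532-5p were 2.13 and 2.02 times higher in NEXTflex, and miR-188-5p and miR-362-3p were 3.25 and 2.40 times lower. Against v1.5, miR-501-3p (1.04-fold) and miR-532-3p were close to even, and miR-362-3p and miR-188-5p were 3.27 and 2.66 times lower.

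Some less abundant arms fell on few forms in NEXTflex. The 457 counts of miR-362-3p lay on 10 distinct alignments, 67.2% of them on 1, whereas the 300 to 501 TruSeq counts lay on 19 to 25, with 30.3% to 38.2% on the commonest. Only lengths of 20 nt (28.0%) and 22 nt (72.0%) occurred, and the 21 nt reads that made up 24.6% to 28.0% in TruSeq were missing. For miR-501-5p 3 alignments held 117 counts. The most abundant arm, miR-532-5p, had 86 distinct alignments in NEXTflex and 60 to 73 in TruSeq, from more counts, with 71.9% of counts on the commonest in NEXTflex against 52.8% to 55.0% in TruSeq. For miR-501-3p the commonest of 33 alignments held 56.0% in NEXTflex, against 68.2% to 75.6% on the commonest of 17 to 21 in TruSeq. The random adapter bases that could count molecules had been trimmed, so a small number of copied molecules and a narrow set of ligated forms cannot be told apart here.

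In liver, both preparations began from the same RNA on the same platform. miR-122-5p alone took 17244 RPMM of the TruSeq and 532452 RPMM of the NEXTflex library, and levels scaled without it were not computed. miR-532-5p had 304 RPMM in TruSeq (exact 95% Poisson interval 295 to 312, counting error only, as for all intervals of single libraries) and 249 RPMM in NEXTflex (241 to 258), and again led the cluster with 78.9% and 79.9% of its sum. miR-501-3p had 45.9 RPMM (42.7 to 49.3) in TruSeq and 10.7 RPMM (9.08 to 12.5) in NEXTflex, a 4.01-fold ratio toward TruSeq. miR-500-3p had 9.76 RPMM (8.31 to 11.4) in TruSeq and 13.1 RPMM (11.3 to 15.1) in NEXTflex, so the arm without a read in NEXTflex MIN6 was present here, and the intervals overlapped only slightly.

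The 3p arms of Mir362 and Mir532 were higher in NEXTflex liver. miR-362-3p had 6.79 RPMM (5.59 to 8.17) in TruSeq and 13.3 RPMM (11.5 to 15.3) in NEXTflex, and miR-532-3p 12.8 RPMM (11.2 to 14.7) and 25.6 RPMM (23.1 to 28.4). miR-362-5p had 32 counts, or 1.94 RPMM (1.33 to 2.74), in TruSeq liver and no read in NEXTflex liver, where 3 counts are 0.209 RPMM. miR-188-5p likewise had 35 counts, or 2.12 RPMM (1.48 to 2.95), against none. These TruSeq values were 9.31 and 10.2 times the level of 3 counts, and the lower ends of their intervals give smaller folds. Of 212 reference miRNAs with at least 10 counts in TruSeq liver, 23.6% had no read in NEXTflex liver, beside 2 of the 7 members. miR-501-5p (28 counts), miR-188-3p (3 counts) and miR-500-5p (1 count) were also unread there.

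In NEXTflex liver, the arms with few counts again had few forms. All 191 counts of miR-362-3p were 22 nt long on 3 alignments, against 112 TruSeq counts on 15. All 188 counts of miR-500-3p were 22 nt long on 5 alignments, where TruSeq had 61.5% at 21 nt, and all 154 counts of miR-501-3p were 23 nt long on 4. miR-532-3p was 99.7% 21 nt, with 95.9% of its counts on 1 of 11 alignments, against 31.2% on 1 of 22 in TruSeq liver. miR-362-5p in TruSeq liver had 26 nt as its commonest length (31.2% of 32 counts).

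Between the cells and the tissue, 6 of the 7 members had a higher level in TruSeq MIN6 than in TruSeq liver, and miR-532-5p was lower (249 against 304 RPMM). The ratio was 37.1-fold for miR-188-5p, 4.27-fold to 5.81-fold for miR-500-3p, miR-532-3p, miR-362-5p and miR-362-3p, and 1.25-fold for miR-501-3p. The share of reference miRNAs higher in MIN6, a list chosen by MIN6 levels, was not computed. miR-30e-5p was also higher in TruSeq MIN6 (9394 to 11039 RPMM) than in TruSeq liver (4403 RPMM). Reads of 20 to 24 nt made up 67.4% to 71.0% of TruSeq MIN6 counts and 50.7% of TruSeq liver counts. In bulk tissue, fewer cells of a type and less RNA per cell cannot be told apart, and the TruSeq libraries of the cells and of the liver were sequenced on different platforms. Within NEXTflex the order was another for some members. miR-188-5p was at 34.7 RPMM in MIN6 with no read in liver, and miR-501-3p at 123 RPMM in MIN6 and 10.7 RPMM in liver, the same direction as in TruSeq. miR-532-5p, lower in MIN6 with TruSeq, was higher there with NEXTflex (505 against 249 RPMM), and miR-500-3p, higher in MIN6 with TruSeq, had no read in NEXTflex MIN6 against 13.1 RPMM in liver.

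2 other clusters give a scale for this spread. In the cluster of miR-183, miR-96 and miR-182, which is expressed in sensory and endocrine cells, the log2 ratios of v1.5 over TruSeq of the 3 arms in the reference list spread over 4.77 (from -1.23 for miR-182-5p to 3.54 for miR-96-5p). In the cluster that runs from miR-17 to miR-92a-1, which promotes proliferation, 5 arms spread over 8.16, from -2.88 for miR-92a-1-3p to 5.28 for miR-20a-5p. The 7 members here spread over 4.42. For NEXTflex over TruSeq the spreads were 4.49, 5.72 and, in the 7 members, 6.61, where the members without a read were chosen by that value, and neither of the other clusters had an arm without a read in NEXTflex MIN6. miR-30e-5p, to which the study scaled its PCR measurements, was at 9394 to 12131 RPMM in TruSeq and v1.5 and 5723 RPMM in NEXTflex.

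Over the 7 MIN6 libraries, the reference miRNAs whose log2 levels correlated best with those of miR-362-5p were miR-23a-3p (Pearson r = 1.000) and miR-184-3p (r = 0.998). For miR-500-3p they were miR-325-3p and miR-339-5p (r = 0.999 and 0.995), for miR-501-3p miR-154-3p and let-7c-2-5p (r = 0.999 and 0.998), for miR-532-5p miR-361-5p and miR-9-3-5p (r = 0.989 each), and for miR-188-5p miR-541-5p and miR-148b-5p (r = 0.994 each). These coefficients describe 3 groups of libraries set by preparation, and were picked as the highest among the 268 reference miRNAs. They do not compare the size of a change. The log2 ratio of v1.5 over TruSeq was 1.34 for miR-23a-3p against 4.13 for miR-362-5p. It was 5.24 for miR-154-3p against 1.03 for miR-501-3p. The coefficients thus rank likeness of pattern between preparations and nothing else.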

How the data were processed

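The deposited files hold 1 line per distinct alignment with an expected count. Per the labels and methods, the authors trimmed 3′ adapters with cutadapt (in NEXTflex also the first and last 4 bases), aligned to mm9 with Bowtie, and divided reads that aligned equally well to several places, which gave these expected counts before deposition. Versions are not given in the sources used here.

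For each 5′ end the expected counts were added up, and RPMM is that sum per 1000000 mapped reads, with the number of mapped reads that the study lists for the library. Names came from equality (relative tolerance 3e-05) with the study's listed values, where 0 stands for fewer than 10 reads. All 358 entries for MIN6 were placed, 345 at exactly 1 position. The other arms were placed by their reference distance from miR-188-5p, rather than from the partner arm as first planned. Members and lists were chosen with earlier results of these data known.

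v1.5 and TruSeq were compared with edgeR 4.0.16 (quasi-likelihood test, counts rounded, at least 10 counts in at least 3 of the 6 libraries, mapped reads as library sizes), with DESeq2 1.42.0 as an alternative. On simulated counts of this comparison (17933 5′ ends), 42 of 50 ends set to 0.25-fold, 32 of 50 to 0.5-fold, 38 of 50 to 2-fold and 50 of 50 to 4-fold were recovered, with 6 of 17733 unchanged ends called. The simulation had a fixed dispersion and few changed ends, equally many up and down, whereas 80.1% of ends were called in the data. Its rate of false calls therefore does not carry over to the data. Intervals of shares are 95% Wilson intervals. No library duplicated another: replicate pairs differed by 36.8 to 127 times the chi-square of counting noise per degree of freedom. Named were the 7 members, the other arms of the hairpins, the 2 best correlated reference miRNAs of each value-matched member and 2 other clusters. Other settings tried were another pseudocount, window, library size, filter and set of alignments, and leaving out each replicate.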

Additional observations from a re-analysis of the deposited data

Results flagged for a closer look

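5 of the 7 members differed in opposite directions between NEXTflex and TruSeq in MIN6 and in liver, with every TruSeq MIN6 library on the same side of NEXTflex, as did 26.1% of the 268 reference miRNAs. With 1 NEXTflex library per source the difference was not tested, and in MIN6 the preparation cannot be told apart from RNA, platform and centre. In liver, miR-122-5p alone was at 532452 RPMM in NEXTflex against 17244 RPMM in TruSeq. Whether a direction turns when miR-122-5p is left out of the scaling was not tested. The log2 ratio in liver minus that in MIN6 was 5.91 for miR-500-3p (0.39 in liver, -5.52 in MIN6), 2.13 for miR-362-3p (0.87 and -1.26) and 1.16 for miR-532-3p (0.94 and -0.21). It was -1.30 for miR-532-5p (-0.28 and 1.02) and -3.09 for miR-501-3p (-2.003 and 1.09). The value of miR-500-3p in MIN6 rests on no read in NEXTflex, by which the cluster was chosen, and on the 1 RPMM added, so it is a description; without that addition its level was at least 383-fold higher in TruSeq. With exact alignments only, miR-532-3p was at 0.084 in MIN6 and had the same direction as in liver with all alignments.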

How the results depend on the processing

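Depth limits the arms with few counts (miR-188-3p, miR-500-5p, and most arms in liver), and 1 library limits NEXTflex. The 14359 5′ ends called became 27373 without a filter on low counts and 4421 among ends with whole-number counts only, where fewer ends were tested; DESeq2 called 12412, and leaving out a replicate gave 13752 to 14367. The number of tested arms called stayed at 3 or 4 throughout, with miR-500-5p counted where it passed. The calls of miR-362-3p (no filter, adjusted p = 0.126 by edgeR) and miR-500-5p (DESeq2, adjusted p = 0.0551) were lost. miR-362-3p reversed to -0.047 with TMM factors and -0.067 with DESeq2, and miR-532-3p was called with both.

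The log2 spread of v1.5 over TruSeq among the 7 was 4.06 with 5 RPMM added. For NEXTflex over TruSeq (6.61) it was 9.91 with 0.1 RPMM added, 4.36 with 5 and 6.33 with exact alignments only. For NEXTflex over v1.5 (8.39) it was 11.7 and 6.09, so these spreads follow the pseudocount where a member has no read. miR-532-3p, near even, reversed to 0.084 (NEXTflex over TruSeq) and 0.16 (over v1.5) with exact alignments only, and over v1.5 to 0.050 with summed counts as library size and 0.034 without v1.5 replicate 1 (-0.030 to 0.034 without any 1 replicate). miR-501-3p reversed to -0.13 over v1.5 with exact alignments only. Without 26-nt reads, added after the data were seen, miR-362-5p had a log2 ratio of 1.40 in v1.5 over TruSeq. Without 1 replicate the spread was 4.34 to 4.57 for v1.5 over TruSeq.

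With the replicate number as a block, edgeR called 14129 5′ ends and the same 4 arms. Same-numbered libraries correlated at 0.08, -0.10 and -0.05 after group means were removed, within the -0.10 to 0.15 of differently numbered ones. Whether same-numbered libraries shared an RNA cannot be read from these values.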
